A study of Homo sapiens with 6 samples.

Results

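The MYC, MAX and MXD network was examined in RNA-seq libraries of the established cell line MDA-MB-231, which derives from a triple-negative human breast cancer. Its 10 genes, MYC, MYCN, MYCL, MAX, MXD1, MXI1, MXD3, MXD4, MNT and MLX, were taken by gene symbol, and each matched 1 of the 58735 rows of the deposited tables. All cells were labelled wild type and had been stained with PKH26, a membrane dye that is diluted at each division, and then grown for 12 days. Slow-cycling cells (SCC) were the 1% that kept the most dye, and rapid-cycling cells (RCC) were sorted at moderate dye, a fraction that the sample characteristics name as low. Each group had 3 libraries from 1 cell line, and the control fraction was itself a sorted, stained population. The comparison asks how expression differs between the slow-cycling and the rapid-cycling fraction.

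MYC, MYCN and MYCL are basic helix-loop-helix leucine zipper factors that bind DNA as dimers with MAX and mostly raise transcription of growth, ribosome biogenesis and metabolism genes. MXD1, MXI1, MXD3, MXD4 and MNT also dimerize with MAX, bind the same E-box letters and recruit the SIN3 corepressor, and several MXD genes are known for their expression in cells that leave the cell cycle. MLX is a MAX-like factor that pairs with MondoA (MLXIP) and ChREBP (MLXIPL), which respond to glucose, and with some repressors of the network. In these bulk libraries, fewer cells expressing a gene and less RNA per cell cannot be told apart.

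Of the 10 genes, 9 passed the filter on low counts and were tested among 15881 genes, and MYCN did not. MXD4 was the only one of the 9 that passed the test, and it was higher in SCC, by 1.54-fold. The call used edgeR's quasi-likelihood test with a Benjamini-Hochberg adjusted p under 0.05 over all tested genes. Among all tested genes, 1.69% were called higher and 0.378% lower. Of the network, 0 genes were called lower with edgeR, 0 also at an unadjusted p under 0.05, and 0 with DESeq2, which called 1.07% of all genes lower. DESeq2 called 1 gene of the network higher, MXD4, against 3.02% of all genes. At an unadjusted p under 0.05, MYC, MXD3 and MXD4 were higher, which makes 3 of 9, and 19.7% of all tested genes had such a p in either direction. The SCC and RCC values did not overlap for 4 genes that were higher in SCC (MYC, MXI1, MXD3 and MXD4) and for 1 that was lower (MLX). The same was true of 14.4% and 13.4% of all tested genes. The fitted log2 fold change of SCC over RCC was above 0 for 8 of the 9 genes, and for 50.5% of all tested genes. Among the 8, MAX and MYCL each changed sign in 3 of the alternative fits given below.

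Summed counts per library ranged from 17655855 to 27831824. SCC replicate 1, the deepest library, stood apart from the others. Its median log2 deviation from the mean of the libraries was -0.24 for the tenth of the genes poorest in GC and 0.40 for the tenth richest in GC, and the other libraries lay between -0.16 and 0.10 there. Results are therefore also given without this library and with an offset for GC content where they move. The 6 genes read as markers of the line (VIM, CD44, KRT18, AXL, CAV1 and EGFR) were at 185 to 898 CPM in every library. CPM is the count over its TMM-adjusted library total, on a fixed scale. A second set held the luminal or epithelial genes ESR1, PGR and CDH1 and the leukocyte and endothelial genes PTPRC, CD3E and PECAM1. The genes of this set summed to 3.79 to 5.82 CPM in SCC and 3.20 to 4.47 CPM in RCC. PECAM1 was the highest of them in every library, at 2.70 to 3.22 CPM in SCC and 2.13 to 3.24 CPM in RCC. PTPRC was at 1.97 CPM in SCC replicate 1 and at 0.143 to 0.711 CPM in the others, and CD3E was at or near 0 in every library. Their part in the results was not tested.

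Levels per gene length, taken from the deposited FPKM values, ordered the network as MYC, MLX, MAX, the repressors and then MYCL and MYCN. MYC stood at 48.7 ± 4.29 FPKM in SCC and 40.5 ± 0.88 in RCC (SD, n = 3), above 94.1% of the tested genes. MLX was at 21.8 ± 0.95 FPKM in SCC and 24.4 ± 1.31 in RCC, and MAX at 10.2 ± 0.43 and 10.06 ± 0.35. The 5 repressors lay between 1.89 and 5.48 FPKM as group means. Within SCC, MXD3 (5.48 ± 0.38) and MXD4 (5.33 ± 0.94) did not differ beyond their spread, and MXI1 (3.11 ± 0.21), MXD1 (2.45 ± 0.037) and MNT (2.21 ± 0.39) followed, the last pair of them within the spread of MNT. In RCC the order was MXD3 (4.03 ± 0.93), MXD4 (3.50 ± 0.28), MXI1 (2.69 ± 0.25), MXD1 (2.06 ± 0.35) and MNT (1.89 ± 0.30), where MXI1 lay apart from MXD4 above it and MXD1 below it by more than 1 SD, and the other neighbours did not.

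**Figure D1:**
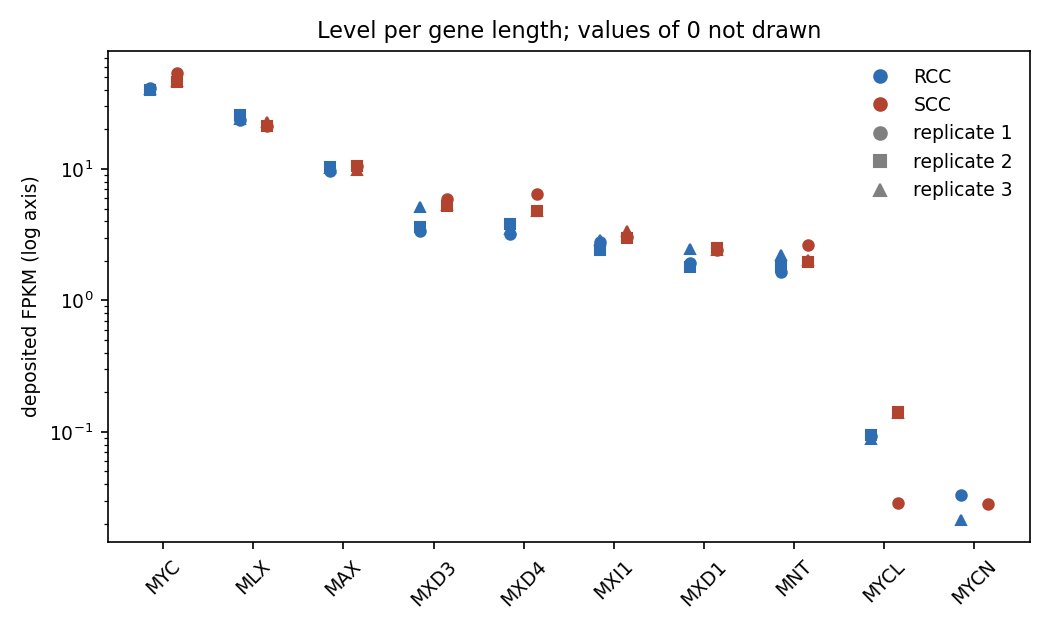
Deposited FPKM of each network gene in each library on a log axis, with RCC in blue, SCC in red and a marker shape for each replicate; values of 0 are not drawn. MYC lies at 39.6 to 53.6 FPKM in all libraries, whereas MYCL and MYCN stay at or below 0.141 FPKM.

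MYC (ENSG00000136997, GRCh38 chromosome 8, 127735434 to 127741434, plus strand) was the MYC factor that these cells expressed. It was at 163, 138 and 140.0 CPM in SCC replicates 1 to 3 and at 125, 118 and 123 CPM in RCC replicates 1 to 3. Every SCC library lay above every RCC library, and SCC replicate 1 was the highest. SCC over RCC gave a log2 fold change of 0.27 (SE 0.078, 95% interval 0.099 to 0.44), a 1.21-fold difference, and edgeR's adjusted p was 0.105, so MYC did not pass. Without SCC replicate 1 the log2 fold change was smaller, at 0.19, and it passed edgeR's threshold with an adjusted p of 0.0193. It also passed with the GC offset, at 0.20 (adjusted p 0.0271). The fit without SCC replicate 1 called 3.93% of all genes higher, against 1.69% in the main fit. In all, MYC was called in 4 of 17 alternatives. Its adjusted p was 0.0754 with DESeq2, 0.171 to 0.399 in the limma fits, 0.159 without SCC replicate 3 and 0.294 to 0.337 without 1 RCC library.

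The other MYC factors were near the limit of detection. MYCL (ENSG00000116990, chromosome 1, 39895426 to 39902256, minus strand), known from lung cancer, had 4, 14 and 15 counts in SCC and 11, 10 and 8 in RCC. Its log2 fold change of 0.11 had a 95% interval from -1.11 to 1.32. MYCN (ENSG00000134323, chromosome 2, 15940564 to 15947007, plus strand), known from neuroblastoma, had 2, 0 and 0 counts in SCC and 2, 0 and 1 in RCC. The group sums of 2 and 3 counts are at or under the 3 counts that an observation of 0 allows, so no fold is given. Among RNAs of these loci, PVT1, the long noncoding RNA next to MYC, averaged 19.1 ± 1.77 CPM in SCC against 16.7 ± 1.37 in RCC (SD, n = 3), a log2 fold change of 0.19 that edgeR did not call (adjusted p 0.339). CASC11 had at most 6 counts and MYCNOS at most 1 count in any library.

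MAX (ENSG00000125952, chromosome 14, 65006174 to 65102695, minus strand), the obligate partner of MYC and of the repressors, was at 47.1, 46.7 and 43.3 CPM in SCC and 43.1, 45.3 and 45.6 CPM in RCC. The groups overlapped. Its log2 fold change of 0.033 had a 95% interval from -0.13 to 0.20 (edgeR adjusted p 0.829), and its sign changed with the GC offset and without RCC replicate 1.

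MLX (ENSG00000108788, chromosome 17, 42567068 to 42573239, plus strand) measured 92.5, 90.5 and 97.8 CPM in SCC and 100.5, 109.7 and 102.03 CPM in RCC. It was the only network gene with every SCC library below every RCC library. Its log2 fold change was -0.15 (SE 0.070, 95% interval -0.31 to 0.0014), and edgeR did not call it (adjusted p 0.258). Exons of MLX share 770 bases with PSMC3IP on the opposite strand, which averaged 24.1 ± 3.36 CPM in SCC against 23.7 ± 2.51 in RCC (SD, n = 3).

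MXD4 (ENSG00000123933, chromosome 4, 2247432 to 2262294, minus strand) encodes a MAX-binding repressor of the MXD group. It was at 46.0, 34.0 and 33.9 CPM in SCC replicates 1 to 3, and at 22.9, 26.6 and 24.9 CPM in RCC replicates 1 to 3. The lowest SCC library lay above the highest RCC library, and SCC replicate 1 stood above the other SCC libraries. The SCC mean was 37.95 ± 6.97 CPM and the RCC mean 24.8 ± 1.85 (SD, n = 3). The fitted log2 fold change was 0.62 (SE 0.13, 95% interval 0.34 to 0.90), and edgeR's adjusted p was 0.033, the 226th smallest p of the table. Without SCC replicate 1 the log2 fold change was 0.46 and still passed (adjusted p 0.0012), and with the GC offset it was 0.48 (adjusted p 0.0034). MXD4 did not pass without RCC replicate 1 (adjusted p 0.189), 2 (0.0979) or 3 (0.149), nor with limma on log2(FPKM + 1), where the adjusted p was 0.118, on log2(FPKM + 0.1) (0.117) or without a filter (0.344). The fitted value stayed above 0.45 in all of these.

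MXD3 (ENSG00000213347, chromosome 5, 177301461 to 177312757, minus strand), a member of the MXD group that is also expressed in dividing cells, was at 30.9, 26.8 and 27.7 CPM in SCC. In RCC it was at 17.6, 18.6 and 26.4 CPM. RCC replicate 3 lay just under the lowest SCC library, and the other RCC libraries were far lower. Its fitted log2 fold change was 0.46 (SE 0.14, 95% interval 0.14 to 0.77), and edgeR's adjusted p of 0.131 did not pass. It was 0.65 without RCC replicate 3 (adjusted p 0.0377) and 0.40 without SCC replicate 1 (adjusted p 0.0463), both past the threshold, and 0.27 with the GC offset (adjusted p 0.204). In all, MXD3 was called in 3 of 17 alternatives. Its adjusted p was 0.0804 and 0.196 without SCC replicate 2 or 3, and 0.394 and 0.384 without RCC replicate 1 or 2. With DESeq2 it was 0.0553, and in the limma fits 0.221 to 0.528. MXD3 values are uncertain, because its exons share 1158 bases with PRELID1 on the opposite strand and 926 with RAB24 on the same strand. PRELID1 had 8205, 3485 and 3910 counts in SCC and 4021, 3670 and 3290 in RCC, and its log2 fold change was 0.32 (edgeR adjusted p 0.297). That of RAB24 was 0.21 (edgeR adjusted p 0.483).

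Windows around the RefSeq starts were searched for the E-box that MAX dimers bind, CACGTG, which reads the same on both strands, and for the AP-1 letters TGACTCA with their reverse complement, since the series title names AP-1. The motifs do not overlap each other. The RefSeq table (GRCh38.p14) held 12 windows for 9 of the 10 genes, all but MYC, each with 250 bases before and 50 after a start. CACGTG was found in 1 window each of MXD4, MNT and MLX, and in 7.26% of all 35116 windows. The AP-1 letters were found in the window of MXD3, and in 4.95% of all windows. The 4 windows with a match are shown 5′ to 3′ on the gene's strand, with the match in capitals.

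MXD4, the gene called higher, chr4:2262060-2262359, minus strand, has CACGTG 238 bases before the start.

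MXD4: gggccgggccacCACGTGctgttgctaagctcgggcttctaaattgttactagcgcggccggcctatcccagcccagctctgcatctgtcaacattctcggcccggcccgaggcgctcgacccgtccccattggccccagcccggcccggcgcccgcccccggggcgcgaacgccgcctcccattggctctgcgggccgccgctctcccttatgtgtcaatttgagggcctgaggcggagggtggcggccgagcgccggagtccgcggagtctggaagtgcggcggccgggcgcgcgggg

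MXD3, chr5:177312703-177313002, minus strand, has TGAGTCA 79 bases before the start.

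MXD3: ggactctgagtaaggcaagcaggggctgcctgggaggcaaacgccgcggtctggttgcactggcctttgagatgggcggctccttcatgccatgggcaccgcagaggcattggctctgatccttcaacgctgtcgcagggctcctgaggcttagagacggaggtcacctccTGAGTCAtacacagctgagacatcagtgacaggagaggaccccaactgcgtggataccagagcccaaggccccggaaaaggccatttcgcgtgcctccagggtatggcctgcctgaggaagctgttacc

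MNT, chr17:2401011-2401310, minus strand, has CACGTG 193 bases before the start.

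MNT: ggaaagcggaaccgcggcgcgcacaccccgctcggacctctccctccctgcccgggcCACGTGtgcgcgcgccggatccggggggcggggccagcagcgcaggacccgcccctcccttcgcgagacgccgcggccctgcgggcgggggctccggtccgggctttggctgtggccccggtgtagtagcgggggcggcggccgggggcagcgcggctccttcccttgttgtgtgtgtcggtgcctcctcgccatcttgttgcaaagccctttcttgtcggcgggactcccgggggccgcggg

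MLX, the gene with a fitted value below 0, chr17:42566850-42567149, plus strand, has CACGTG 50 bases before the start.

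MLX: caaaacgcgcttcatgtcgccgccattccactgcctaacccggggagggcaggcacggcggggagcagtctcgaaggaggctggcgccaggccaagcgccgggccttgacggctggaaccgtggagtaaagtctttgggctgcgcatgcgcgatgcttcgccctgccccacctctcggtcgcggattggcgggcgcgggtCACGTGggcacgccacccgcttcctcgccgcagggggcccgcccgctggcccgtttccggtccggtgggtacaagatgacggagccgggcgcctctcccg

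The E-box letters thus occur in the window of the called gene, of a gene whose groups overlapped and of the gene that was lower in every SCC library. A match is a description of these letters and shows no binding.

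MXD1 (ENSG00000059728, chromosome 2, 69897688 to 69942945, plus strand), the founding MXD gene, was at 15.7, 15.9 and 15.5 CPM in SCC and 12.4, 11.3 and 15.7 CPM in RCC. The SCC libraries were nearly equal, and RCC replicate 3 reached their level. The log2 fold change was 0.26 (SE 0.13, 95% interval -0.023 to 0.54; edgeR adjusted p 0.284). Without RCC replicate 3 it was 0.39, and edgeR did not call it (adjusted p 0.229). Exons of MXD1 share 237 bases with SNRNP27 on the same strand, whose log2 fold change was -0.092.

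MXI1 (ENSG00000119950, chromosome 10, 110207605 to 110287365, plus strand), also known as MXD2, was at 14.1, 13.7 and 15.5 CPM in SCC and 12.95, 11.04 and 13.3 CPM in RCC. The groups did not overlap, but the lowest SCC and the highest RCC library differed little. The log2 fold change was 0.22 (SE 0.12, 95% interval -0.037 to 0.47), with an edgeR adjusted p of 0.313.

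MNT (ENSG00000070444, chromosome 17, 2384060 to 2401118, minus strand), a repressor expressed in both dividing and resting cells, was at 23.6, 17.1 and 17.8 CPM in SCC and 14.5, 15.5 and 19.6 CPM in RCC. RCC replicate 3 lay above SCC replicates 2 and 3. The log2 fold change was 0.25 (SE 0.15, 95% interval -0.084 to 0.58; edgeR adjusted p 0.374). It was 0.086 when SCC replicate 1 was left out and 0.042 under the GC offset. The GC content of its longest transcript is 61.4%, and the part of GC content in its value was not tested. For MXD1 and MXI1, at 42.7% and 43.7% GC, the log2 fold changes were 0.26 and 0.24 without SCC replicate 1 and 0.33 and 0.28 with the GC offset.

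**Figure D2:**
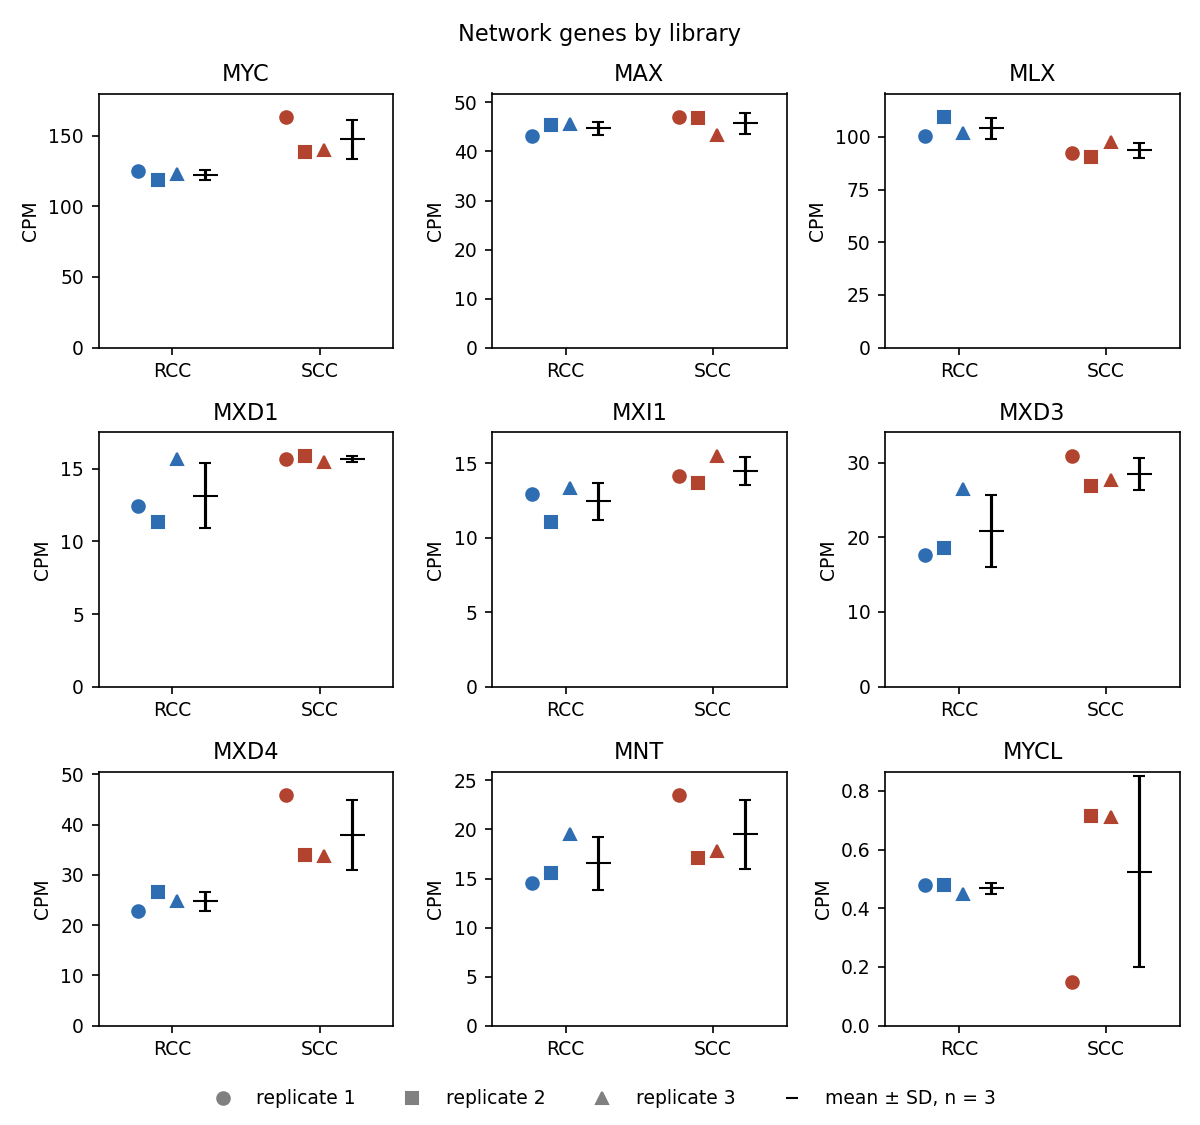
CPM of the 9 tested genes in each library on axes that start at 0, with RCC in blue, SCC in red, a marker shape for each replicate, and the mean and SD of 3 libraries in black. MXD4 is at 33.9 to 46.0 CPM in SCC against 22.9 to 26.6 in RCC, and RCC replicate 3 is the highest RCC library for MXD1, MXI1, MXD3 and MNT.

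The ratio of the repressors' summed level to that of MYC overlapped between the groups, while the sum itself did not. Their summed level was 20.4, 17.4 and 18.0 FPKM in SCC and 12.97, 13.4 and 16.2 FPKM in RCC. The summed level divided by that of MYC was 0.381, 0.379 and 0.386 in SCC and 0.314, 0.338 and 0.398 in RCC. RCC replicate 3 lay above the SCC libraries in this ratio, and the other RCC libraries below. The level of MYC over that of MAX was 5.12, 4.37 and 4.77 in SCC and 4.28, 3.86 and 3.97 in RCC, without overlap. These sums are over genes chosen for the network and are given with no test. In SCC, MXD3 took 28.9% to 29.8% and MXD4 26.6% to 31.4% of the summed repressor level. In RCC, MXD3 took 26.1% to 31.5% and MXD4 21.7% to 28.2%. The share of MXD3 is uncertain, because its exons share bases with PRELID1 and RAB24. On CPM, which is not per length, the mean of MXD4 was above that of MXD3. These means were 37.95 ± 6.97 against 28.5 ± 2.17 in SCC and 24.8 ± 1.85 against 20.9 ± 4.83 in RCC (SD, n = 3).

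**Figure D3:**
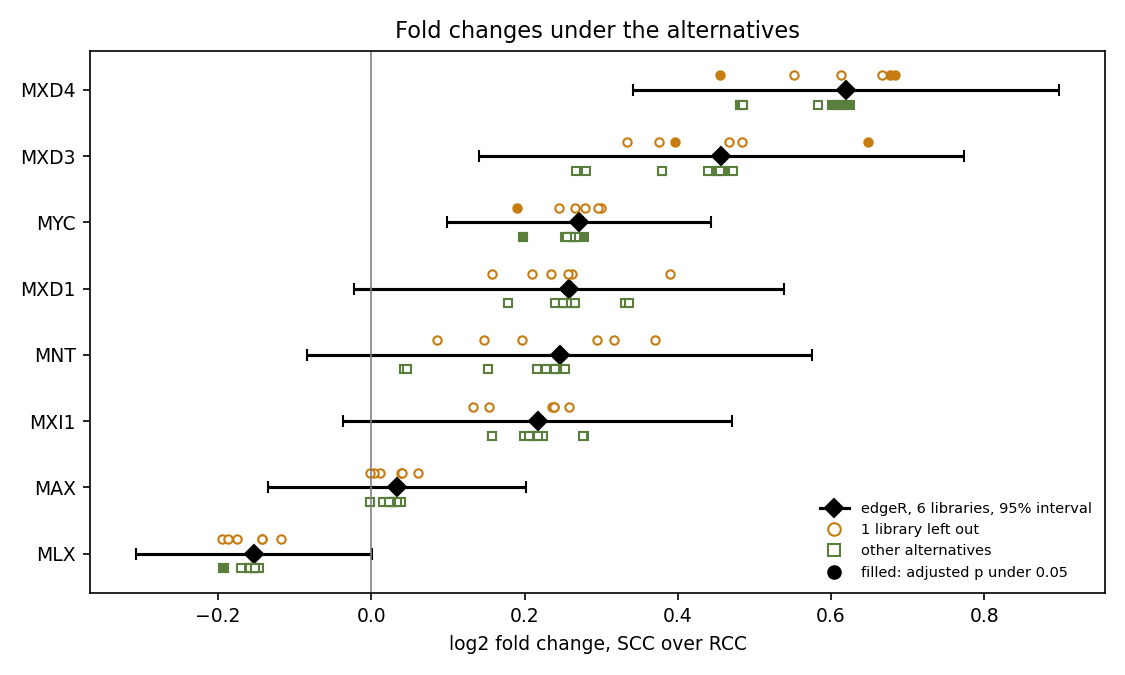
Log2 fold change of SCC over RCC for 8 tested genes (MYCL, at 15 counts or fewer, is not drawn), with the edgeR value and its 95% interval as black diamonds, fits that leave out 1 library as circles and other alternatives as squares, filled where the adjusted p was under 0.05. All values of MXD4 lie between 0.46 and 0.68, and those of MNT reach down to 0.042.

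Other genes of the pathway were read from lists by role, and a list's median log2 fold change stands beside 0.0029, the median over the whole table. The counts of called genes in each list stand beside the 1.69% of all tested genes called higher and the 0.378% called lower. Because the lists were chosen with earlier results of these data known, these counts are descriptions. Partners of MAX and MLX and the targets of MondoA and MLX made up 5 genes, of which TXNIP was called higher. Their median was 0.27, or 0.13 both with the GC offset and when SCC replicate 1 was left out. TXNIP, an arrestin-like protein that limits glucose uptake, was at 107, 124 and 113 CPM in SCC and 65.6, 63.6 and 61.9 CPM in RCC, a log2 fold change of 0.85 (edgeR adjusted p 1.7e-04). ARRDC4, another arrestin-like target of these factors, was at 5.12, 5.11 and 3.84 CPM in SCC and 3.65, 3.92 and 2.96 CPM in RCC, with overlap (log2 fold change 0.41, edgeR adjusted p 0.257). MLXIP, the MondoA gene, was at 168, 128 and 132 CPM in SCC and 119, 118 and 118 CPM in RCC. Its log2 fold change of 0.27 was not called by edgeR (adjusted p 0.179). MLXIPL was at 0.717 to 0.956 CPM in each library but RCC replicate 3 (1.73 CPM), with a log2 fold change of -0.46 (edgeR adjusted p 0.517). MGA, a large MAX partner that represses germ-line genes, had a log2 fold change of -0.12 (edgeR adjusted p 0.352).

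The SIN3 corepressor, through which MXD proteins act, showed no called gene among 17 tested in the main fit. Its median log2 fold change was 0.0015, and DESeq2 also called 0. An unadjusted p under 0.05 was found for 1 gene with a higher and 1 with a lower level, beside 19.7% of all tested genes. ING1, a SIN3 subunit that reads histone methylation, had the smallest p of the list, at a log2 fold change of 0.32 (edgeR adjusted p 0.126). With the GC offset, 1 gene of this list was called higher, against 3.29% of all genes. Without SCC replicate 1 it was also 1, against 3.93%. Of 17 cofactors of MYC, 0 were called higher and 1 lower, with a median of 0.088. At an unadjusted p under 0.05, 4 were higher and 1 lower, beside 19.7% of all tested genes in either direction, and DESeq2 called 1 higher and 1 lower. The median was -0.055 under the GC offset and -0.016 when SCC replicate 1 was left out. The called gene was CCNT1, the cyclin of the elongation kinase P-TEFb, with a mean of 47.4 ± 0.63 CPM in SCC against 60.1 ± 2.31 in RCC (SD, n = 3; log2 fold change -0.34, edgeR adjusted p 0.038). CCNT1 was not called in 8 of 17 alternatives, including those that left out SCC replicate 3 or any RCC library.

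Genes that act on the MYC protein's stability, in either direction, included 2 called higher and 1 called lower of 21. Their median log2 fold change was 0.11, which was 0.056 under the GC offset and 0.0042 without SCC replicate 1. As the list is mixed, its median and counts give no direction for MYC. At an unadjusted p under 0.05, 4 of the 21 genes were higher and 5 lower, beside 19.7% of all tested genes in either direction. DESeq2 called 3 higher and 1 lower, against 3.02% and 1.07% of all genes. Leaving out 1 library gave 1 to 4 higher and 0 to 2 lower, against 0.602% to 3.93% and 0.0491% to 2.1%. SKP2, the substrate receptor of a ubiquitin ligase that binds MYC, fell, from 77.4 ± 4.28 CPM in RCC to 54.6 ± 1.69 in SCC (SD, n = 3). Its log2 fold change was -0.50 (edgeR adjusted p 0.0051). Limma on log2(FPKM + 1) without a filter did not call it, and leaving out RCC replicate 1 or 2 also ended the call. FBXO32, another ubiquitin ligase subunit, rose from 4.52 ± 0.42 to 9.50 ± 1.30 CPM (log2 fold change 1.07, edgeR adjusted p 0.0041). PIM1, a kinase that phosphorylates MYC, rose from 38.1 ± 0.90 to 51.9 ± 6.34 CPM (log2 fold change 0.45, edgeR adjusted p 0.040), and was not called without SCC replicate 3 or without any one RCC library. The limma fits on FPKM did not call FBXO32 or PIM1.

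Genes that MYC is known to induce, mostly of the nucleolus and of ribosome biogenesis, had 0 called by edgeR in either direction among 55 tested. Their median log2 fold change was -0.059, with 23 values above and 32 below 0. MYC itself had a value of 0.27, which did not pass (edgeR adjusted p 0.105), and a relation of these genes to the MYC level was not tested. At an unadjusted p under 0.05, 11 were lower and 1 was higher, beside 19.7% of all tested genes in either direction, and DESeq2 called 0. GNL3, the nucleolar protein nucleostemin, had the smallest p, with a mean of 185 ± 16.3 CPM in SCC against 220.1 ± 6.08 in RCC (SD, n = 3; log2 fold change -0.25, edgeR adjusted p 0.116). With the GC offset, and when each library was left out in turn, the median stayed between -0.085 and -0.030, and the calls then numbered 0 to 3 lower and 0 to 1 higher.

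Of the genes that MYC is known to repress, 10 were tested, and 4 were called higher (against 1.69% of all tested genes) and 0 lower. The list was chosen with earlier results of these data known, so this count is a description and no test of enrichment. At an unadjusted p under 0.05, 5 were higher and 0 lower, beside 19.7% of all tested genes in either direction. DESeq2 called 4 higher and 0 lower. The median log2 fold change was 0.45, or 0.28 with the GC offset and 0.19 without SCC replicate 1. GADD45A, a growth arrest and stress gene, rose from 26.4 ± 2.48 to 53.2 ± 4.60 CPM (SD, n = 3; log2 fold change 1.02, edgeR adjusted p 3.0e-04). CDKN1A, the kinase inhibitor p21, rose by 0.69 on the log2 scale, NDRG1, a stress-responsive gene, by 0.46 and CLU, the chaperone clusterin, by 0.50, with edgeR adjusted p of 7.5e-04, 0.0032 and 0.013. NDRG1 was not called without RCC replicate 3, and CLU was not called without SCC replicate 3 or any one RCC library. The number called was 2 without RCC replicate 3 and 5 without SCC replicate 2. CDKN2B, GAS1 and NDRG2 had at most 5 counts in any library and were not tested. Several of these genes are stress-induced and are regulated by other factors too.

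**Figure D4:**
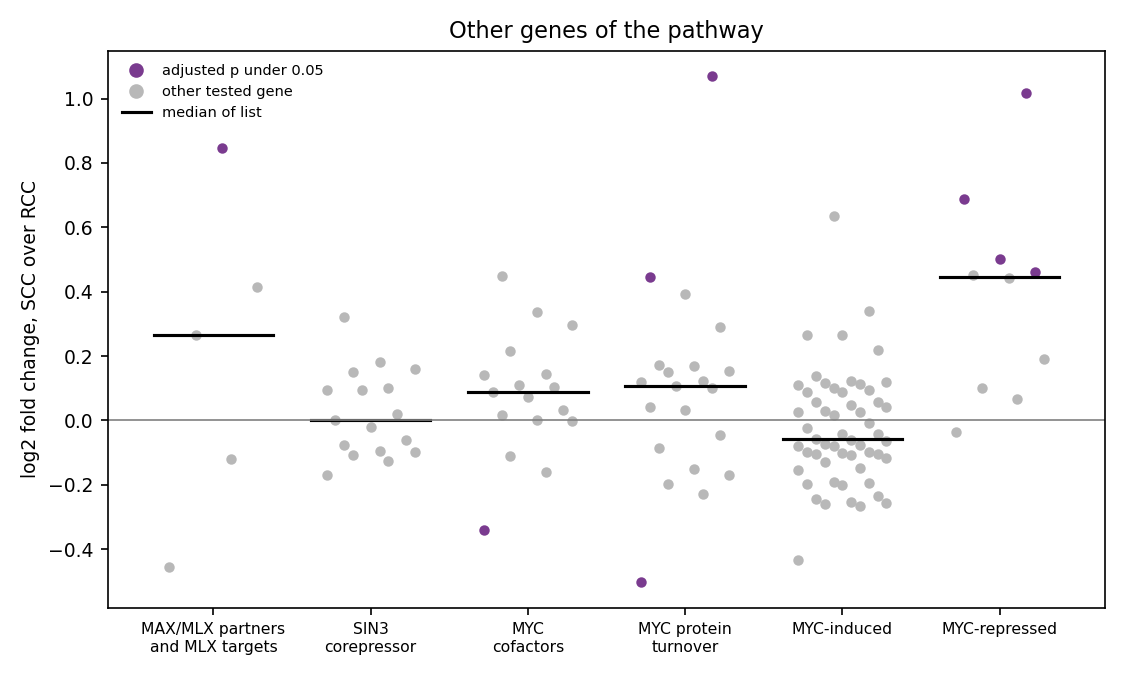
Log2 fold change of SCC over RCC for each tested gene of 6 lists, with called genes in purple, other genes in grey and the median of each list as a black line. Called genes appear in 4 of the lists, and the 55 MYC-induced genes have none and a median of -0.059.

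The genes whose log2 CPM followed a network gene most closely over the 6 libraries are given as a description. All points come from the same libraries, which differ in depth and in GC content, and 10912 genes were compared. For MYC they were DDR1, C15orf39 and WBP11, with Pearson r of 0.999 for each, and 431 genes had an r over 0.95. C15orf39 was called higher (log2 fold change 0.78, edgeR adjusted p 0.026), and DDR1, a collagen receptor, was not (0.43, adjusted p 0.068), nor was WBP11, a splicing protein (0.0997, adjusted p 0.388). For MXD4 they were PORCN, MAPKAPK2 and VPS53, with r of 0.999, 0.996 and 0.994, and 296 genes had an r over 0.95. None of these 3 was called by edgeR, at log2 fold changes of 0.60, 0.28 and 0.22.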

How the data were processed

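Libraries were made from TRIzol RNA with an NEBNext Ultra kit, per the labels' protocols. The submitters' processing notes name HISAT2 2.0.5 and featureCounts 1.5.0-p3. The authors deposited 1 table of raw gene counts (whole numbers) and 1 of FPKM, per the file headers. Filters, use of strand and the build are not given in the sources used here. All 58735 gene IDs and positions equalled those of GENCODE 29 on GRCh38.

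Genes were filtered with filterByExpr (minimum count 10), scaled by TMM and tested with edgeR 4.0.16 in R 4.3.3 on group alone, two-sided, with Benjamini-Hochberg adjustment. The fit was checked on simulated data. Standard errors are the log2 fold change over the square root of F. Alternatives were DESeq2 1.42.0, limma 3.58.1 on log2 of the deposited FPKM plus 1 or 0.1, other scalings and filters, a replicate block and each library left out. The GC offset (lowess, span 0.3, GC of the longest GENCODE transcript) replaced a genome-based one and was added after seeing the files. Promoter windows came from RefSeq. The members and lists were chosen with earlier results of these data known. Named were all members, called list genes, the smallest p of a list with none called, every gene of lists of up to 5, and for likeness the 3 highest r among genes at a mean of at least 5 CPM. Genes sharing exons with members were named after their values were seen. Replicates of a group differed by more than counting noise. Chi-square per degree of freedom was 28.45 and 21.41 for the pairs with SCC replicate 1, and 3.28 to 4.24 for the other pairs.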

Additional observations from a re-analysis of the deposited data

How the results depend on the processing

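Against 268 higher and 60 lower genes, the number called was 480 and 170 with DESeq2, 995 and 315 with no filter beyond 1 count in all, and 523 and 244 with the GC offset. It was 130 and 36 with limma on log2(FPKM + 1), 117 and 34 on log2(FPKM + 0.1), and 48 and 1 on log2(FPKM + 1) without a filter. Leaving out 1 library gave 99 to 642 higher and 8 to 343 lower genes; fewer libraries enter these fits. The labels state no pairs, and the main fit took none. Deviations of same-numbered replicates had correlations of -0.0091, 0.025 and -0.079. These cannot settle whether the replicates are pairs, because the deviation of SCC replicate 1 with GC content enters them. The replicate block gave 350 higher and 106 lower genes and called 1 network gene, and with the GC offset it gave 615 and 421.

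Network genes called higher numbered 1 in the main comparison, 3 with every gene of at least 1 count (MYC, MXD3 and MXD4, against 2.65% of all genes), 2 with the GC offset (3.29%), 2 with the block and the GC offset (3.87%), 0 in the 3 limma fits (0.128% to 1.04%), and 0 to 3 with 1 library left out (0.602% to 3.93%). The 3 were found without SCC replicate 1, the fit with 3.93%. Network genes called lower numbered 1 with the block and the GC offset (MLX, log2 fold change -0.19, adjusted p 0.0426, against 2.65%) and 0 otherwise. The sign of MYCL changed with the block and GC offset (-0.064) and ranged from -0.21 to 0.60 with 1 library left out. That of MAX changed with the GC offset (-0.0019, with the block -0.0013) and ranged from -0.0021 to 0.061. The causes were not tested. MXD1, MXI1, MXD3, MXD4, MNT, MYC and MLX kept their direction in all 17 alternatives. MYCL had 4 to 15 counts per library, the 4 in SCC replicate 1, the deepest. The repressor to MYC ratio was 0.787 in SCC and 0.719 in RCC on CPM, which is not per length, against 0.382 and 0.350 on FPKM.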
